A study of Mus musculus with 6 samples.

Results

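Endoplasmic reticulum (ER) folding and degradation genes were compared between SclRER/RER and wild-type (WT) erythroid progenitors of the mouse fetal liver. The members were a fixed list of 33 genes, taken with every probe that the platform annotation assigned to them on single-colour Illumina bead arrays. The list matched 50 of the 46632 probes and 32 of the 33 genes, out of 17711 named genes in all. No probe carried the symbol Ssr1, a subunit of the translocon-associated protein complex, so it was not analysed here.

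SclRER/RER cells express SCL, the product of Tal1, in a form that cannot bind DNA, and WT cells express the normal protein. There were 3 arrays of each genotype. Per the labels, both genotypes were C57Bl/6, and the cells were E12.5 fetal liver cells after 3 days of expansion. They were Ter119-negative, so that maturing red cells bearing that surface marker were left out. The comparison asks which transcripts depend on DNA binding by SCL, a basic helix-loop-helix factor of blood formation. Separate embryos or cultures are not stated for the replicates. The p-values therefore rest on the spread among these arrays alone, and that spread may be technical. In bulk RNA of this kind, fewer cells of a type and less RNA per cell cannot be told apart.

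Proteins that are secreted or set in a membrane enter the ER through the Sec61 channel, fold there with the help of chaperones and disulfide isomerases, and, where folding fails, are pulled back to the cytosol, marked with ubiquitin and destroyed by the proteasome (ER-associated degradation). The sensors ATF6, IRE1 (encoded by Ern1) and PERK (Eif2ak3) detect unfolded protein: ATF6 and XBP1, whose mRNA IRE1 splices, activate chaperone and degradation genes, while PERK acts through the factor ATF4. Maturing erythroid cells build their membrane through this route and later lose the organelle.

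Response elements upstream of the members are shown because they are the sequences through which this response is known to act on its target genes. The 250 bases before the start of transcription were read from RefSeq's GRCm38.p6 table, which held 27 of the 33 members. The ER stress response element (ERSE, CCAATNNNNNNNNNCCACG, bound by NF-Y and by ATF6 or XBP1) was searched on both strands. It was present for 8 of the 27 members (29.6%), against 0.13% of all 27025 genes in the table. The members were listed for ER folding and degradation, so the higher share with ERSE elements describes the list and not the arrays. These elements are shown with the fixed letters in capitals:

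Hspa5, 65 to 47 bases upstream on the gene strand: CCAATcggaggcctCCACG
Hsp90b1, 212 to 194 bases upstream on the gene strand: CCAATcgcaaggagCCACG
Hsp90b1, 107 to 89 bases upstream on the other strand: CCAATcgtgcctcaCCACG
Creld2, 126 to 108 bases upstream on the other strand: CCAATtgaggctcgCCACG
Calr, 162 to 144 bases upstream on the other strand: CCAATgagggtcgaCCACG
Canx, 145 to 127 bases upstream on the gene strand: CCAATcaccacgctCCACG
Pdia6, 98 to 80 bases upstream on the gene strand: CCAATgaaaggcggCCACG
Syvn1, 44 to 26 bases upstream on the gene strand: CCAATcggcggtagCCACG
Derl3, 156 to 138 bases upstream on the other strand: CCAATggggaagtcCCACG

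The window of Herpud1 held no whole ERSE, but it ended with ccaatggatggcagccac, an ERSE lacking its last letter. The next base was not searched, so Herpud1 was not counted as having an ERSE. It was the only one of the 27 members with the shorter ERSE-II (ATTGGNCCACG), an element known from the human HERPUD1 promoter and present in 0.037% of all genes in the table. It was also the only one with a C/EBP-ATF response element (CARE, TGATGNAA), the kind of site through which ATF4 acts. That is 3.7% of the members, near the 3.91% of all genes that had a CARE. The upstream sequences of Herpud1, the member whose mRNA changed, and of Hsp90b1, a measured member with 2 ERSE copies, are given on the gene's strand. In Hsp90b1 the capitals mark the ERSE copies, of which the one nearer the start reads on the other strand. In Herpud1 the capitals nearest the start are the ERSE-II and those farther upstream are the CARE, which reads on the other strand.

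Herpud1 (chr8:94386179-94386428, + strand): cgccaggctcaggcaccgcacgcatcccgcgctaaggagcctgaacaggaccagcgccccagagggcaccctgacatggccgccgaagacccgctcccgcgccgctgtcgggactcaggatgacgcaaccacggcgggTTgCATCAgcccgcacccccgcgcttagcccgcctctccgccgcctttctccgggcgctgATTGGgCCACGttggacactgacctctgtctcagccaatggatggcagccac
Hsp90b1 (chr10:86705445-86705694, - strand): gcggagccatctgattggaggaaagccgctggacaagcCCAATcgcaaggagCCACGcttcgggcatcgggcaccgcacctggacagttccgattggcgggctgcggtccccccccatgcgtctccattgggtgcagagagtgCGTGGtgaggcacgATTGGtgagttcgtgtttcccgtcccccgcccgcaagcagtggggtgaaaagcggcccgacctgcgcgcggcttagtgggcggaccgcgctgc

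The core of the unfolded protein response element (TGACGTG) was upstream of Hspa5 and Vcp, 2 of 27 members (7.41%), against 1.85% of all genes. The E-box CAGATG, a sequence that SCL with an E protein can bind, was found for Calr, Hsp90b1 and Ssr1 (11.1% of members, 16.3% of all genes), and the GATA motif AGATAA for Derl2 and Ssr1 (7.41% of members, 11.4% of all genes). A match is a description of letters and not a site, and the ERSE and its shorter form share the letters CCACG.

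Mean signal lay between 385 and 546 intensity units on the SclRER/RER arrays and between 404 and 457 on the WT arrays, and 11084 to 12678 of the 46632 probes were detected per array (detection p below 0.01). Tal1 mRNA did not pass the test (log2 difference 0.08, SE 0.11, limma adjusted p = 0.77), which is no check of the genotype because the mutation alters the protein. All 8 erythroid markers reported were measured above background, and of these only Epor was called. It fell on its brightest probe (log2 difference -0.54, limma adjusted p = 0.0199). Its other measured probe, at -0.38, did not pass (limma adjusted p = 0.0945). Markers of hepatocytes were above background for 1 of 8 genes (Apoa1), of macrophages for 1 of the 5 with a probe (Lyz2), of endothelial and stromal cells for 1 of 5 (Kdr), and of plasma and B cells, which carry a heavy secretory load, for 0 of the 6 with a probe.

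A probe counted as measured above background where 3 or more of the 6 arrays detected it. By this rule 26 of the 50 member probes and 22 of the 33 genes were measured. Of the 22 genes, represented by their brightest measured probe, 0 rose, 1 fell and 21 did not pass at a limma adjusted p below 0.05. That is 4.55% of the members, near the 6.58% called among all 6855 genes tested, of which 3.57% were higher and 3.01% lower in SclRER/RER. By probe, 0 of the 26 rose and 1 fell, against 3.33% of all probes tested called higher and 3.26% called lower. At an unadjusted p below 0.05, 2 of the 22 stood out, Herpud1 and Xbp1, against 19% of all genes. Differences were above 0 for 17 of the 22 members, with a median of 0.07 on the log2 scale and a range from -0.85 to 0.46, against a median of 0.02 over all genes tested, of which 53.4% were above 0. Values did not overlap between genotypes for 3 of the 22 members (13.6%), Herpud1, Xbp1 and Sdf2l1, against 25.4% of all genes.

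**Figure D1:**
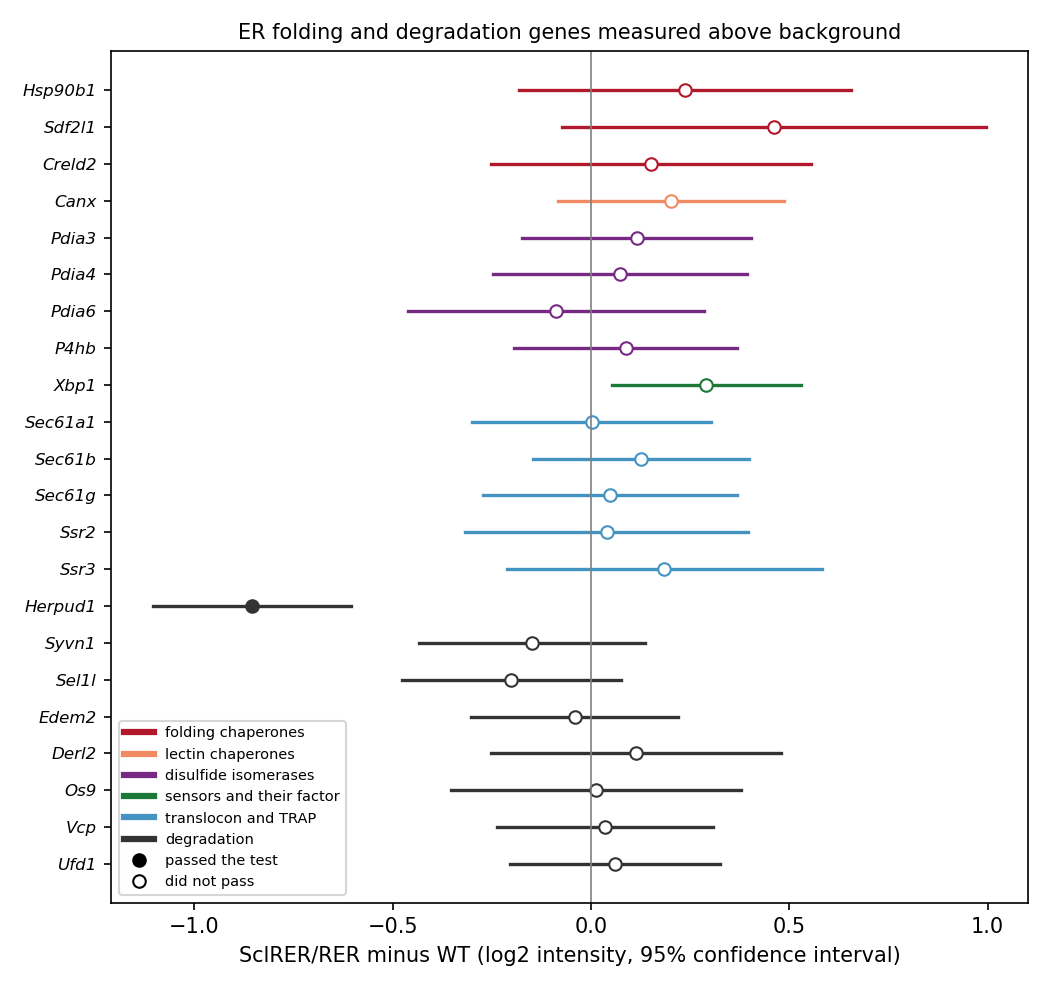
Log2 difference (SclRER/RER minus WT, x axis) of each of the 22 ER genes measured above background (y axis, coloured by role), with 95% confidence intervals from the limma fit over 3 arrays of each genotype. Herpud1, at -0.85, is the only filled point, and the 95% intervals of 20 of the other genes include 0, Xbp1 being the exception.

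The intervals of the 21 genes that did not pass rest on the spread among these arrays, which may be technical. They therefore may not bound a difference between embryos or cultures. They also depend on quantile normalization. Under median scaling the SE was 0.29 for Hsp90b1 and 0.26 for Canx, against 0.18 and 0.12 as reported. For 16 of them the 95% confidence interval lay wholly between -0.5 and 0.5 on the log2 scale, and for all 21 between -1 and 1. The intervals that reached past 0.5 were those of Hsp90b1, Sdf2l1, Creld2, Xbp1 and Ssr3, each on the upper side.

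**Figure D2:**
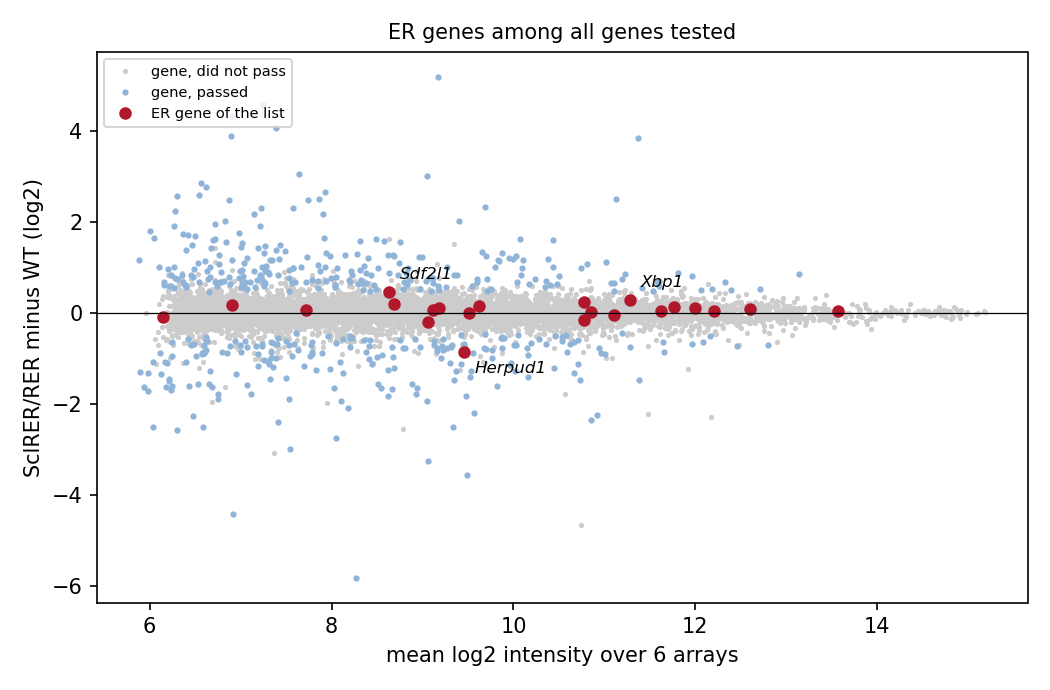
Log2 difference (SclRER/RER minus WT, y axis) against mean log2 intensity over the 6 arrays (x axis) for all 6855 genes tested, in grey where the gene did not pass and in blue where it passed. The ER genes, in red, lie in the band around 0 apart from Herpud1.

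The gene that fell was Herpud1, which encodes a stress-induced protein of the ER membrane that gathers the ubiquitin ligase complex of ER-associated degradation. Its log2 intensity was 9.04, 8.93 and 9.13 on SclRER/RER arrays 1 to 3, against 9.88, 9.93 and 9.86 on WT arrays 1 to 3. All 3 SclRER/RER values lay below all 3 WT values, and the spread within each genotype was small (mean 9.03 ± 0.10 in SclRER/RER and 9.89 ± 0.04 in WT, SD, n = 3 each). Herpud1 fell by 0.85 on the log2 scale (SE 0.11, 95% confidence interval -1.10 to -0.61, adjusted p = 0.00258), a level 1.81-fold higher in WT. By size of the fall it ranked 115 among the 206 genes called lower.

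The Herpud1 call held without any single array, with adjusted p between 0.00327 and 0.0266, and missed the threshold when arrays were scaled to a common median in place of quantile normalization (-0.74, SE 0.26, adjusted p = 0.154). Only 1 probe measured this gene. Herpud1 lies on chromosome 8, where 43 of 390 genes tested were called (11%, Herpud1 included), against 6.58% over the whole genome. Chromosomes 1 and 7 had nearly the same share (10.6% each), and the lowest share was 3.15%, on chromosome 16. Of the 20 tested genes nearest to Herpud1 in chromosome order, 10 on each side, 4 were called. Mmp2 (3.84) and Ciapin1 (0.75) were higher and Arl2bp (-0.73) and Ccdc102a (-0.74) lower in SclRER/RER. Of the nearest 50 tested genes, 10 were called (20%), 6 higher and 4 lower. The part of this neighbourhood in the Herpud1 result was not tested.

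Markers of other cell types also differed by genotype. Of 7 megakaryocyte markers 4 were above background and all 4 fell (Pf4, Ppbp, Treml1 and Alox12), and the summed intensity of the list was 685 to 940 in SclRER/RER and 1757 to 2160 in WT. Of 5 granulocyte precursor markers 3 were above background and were called lower (Mpo, Ctsg and Prtn3), with sums of 1313 to 1814 in SclRER/RER and 2508 to 2620 in WT. Ctsg was kept only through the WT arrays, being detected on 1 SclRER/RER array and 3 WT arrays. Of 6 mast cell and basophil markers 3 were kept, each only through the genotype where it is high, so their count carries no support. Cpa3 was detected on 3 SclRER/RER arrays and 1 WT array, Fcer1g on 1 SclRER/RER array and 3 WT arrays, and Tph1 on no SclRER/RER array and 3 WT arrays. With values under the lowest detected signal raised to it, their differences were 0.84, -1.51 and -1.34. The sums of the list were 307 to 381 in SclRER/RER and 578 to 647 in WT. Itga2b, Gp9, Gp1bb, Elane, Ms4a3, Tpsb2, Mcpt8 and Fcer1a were not measured above background. The part of these cells in the Herpud1 result was not tested.

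Herpud1 protein works within the ligase complex built around HRD1, encoded by Syvn1, and its other measured components did not pass. Syvn1 had log2 intensities of 10.72, 10.72 and 10.65 in SclRER/RER, against 10.65, 10.87 and 11.01 in WT. Its genotypes overlapped, and the difference was -0.15 (SE 0.13, adjusted p = 0.597). Sel1l, the adaptor that stabilises HRD1, had 8.91, 9.04 and 8.93 in SclRER/RER, against 9.15, 9.32 and 9.02 in WT. Here too the highest SclRER/RER value lay above the lowest WT value, with a difference of -0.20 (SE 0.12, 95% confidence interval -0.48 to 0.07, adjusted p = 0.429).

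The remaining degradation genes lay closer to 0. Os9, a lectin that brings misfolded glycoproteins to the ligase, differed by 0.01, Vcp, the ATPase that extracts proteins from the membrane, by 0.04, and its cofactor Ufd1 by 0.06, with SE of 0.12 to 0.16. Edem2, which starts the mannose trimming that marks glycoproteins for destruction, had probes at -0.04 and 0.10, and Derl2, a derlin of the membrane channel, had probes at 0.11 and 0.00. None of these probes passed (adjusted p of 0.725 or more). Edem1, Edem3, Derl1 and Derl3 had no probe detected on any array.

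Of the sensors and their factor, Xbp1 was the only gene measured above background. Its log2 intensity was 11.48, 11.43 and 11.37 in SclRER/RER, against 11.17, 11.12 and 11.12 in WT. All SclRER/RER values lay above all WT values, but Xbp1 missed the threshold at a difference of 0.29 (SE 0.10, 95% confidence interval 0.05 to 0.53) with an adjusted p of 0.162. It was not called under any of 17 alternative settings (adjusted p 0.0828 to 0.78). The array measures total Xbp1 mRNA at 1 probe and does not separate the spliced form. Neither of the 2 probes of Atf6 was detected on any array. The brighter had 5.38, 5.31 and 5.59 in SclRER/RER, against 5.38, 5.20 and 5.18 in WT, and the genotypes overlapped. Of 3 Ern1 probes, the brightest was at 7.10, 6.16 and 6.16 in SclRER/RER, against 6.42, 6.25 and 6.08 in WT, and passed detection on 1 array of each genotype. SclRER/RER array 1 was the highest, and the genotypes overlapped. With no detection filter Atf6 differed by 0.17 and Ern1 by 0.22 (adjusted p = 0.625 and 0.866).

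Among the folding chaperones, Sdf2l1, a partner of the ER Hsp70 system and of its J-domain proteins, had the largest positive difference of the members. It had 8.51, 8.60 and 9.48 in SclRER/RER, against 8.42, 8.34 and 8.45 in WT. The groups did not overlap, but SclRER/RER array 3 was far above the other 2, and the difference of 0.46 (SE 0.23, adjusted p = 0.332) became 0.15 (SE 0.11, adjusted p = 0.473) without that array. Creld2, an ER-resident stress-induced protein, had 9.44, 9.55 and 10.09 in SclRER/RER, against 9.68, 9.46 and 9.49 in WT. Array 3 was again the high one, and the difference was 0.15 (SE 0.18, adjusted p = 0.728), or -0.05 without it. Hsp90b1, the ER form of Hsp90 known as GRP94, had 11.08, 10.52 and 11.06 in SclRER/RER, against 10.81, 10.74 and 10.40 in WT, with SclRER/RER array 2 inside the WT range. Its difference was 0.24 (SE 0.18, adjusted p = 0.56), with a range from 0.11 without WT array 3 to 0.42 without SclRER/RER array 2, and 0.06 under array weights.

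Canx encodes calnexin, a lectin chaperone that holds monoglucosylated glycoproteins in the folding cycle. It had 8.69, 8.75 and 8.91 in SclRER/RER, against 8.60, 8.72 and 8.43 in WT, and its second probe was detected on no array. The genotypes overlapped, with a difference of 0.20 (SE 0.12, adjusted p = 0.446). The disulfide isomerases, which form and reshuffle disulfide bonds, differed by 0.11 (Pdia3), 0.07 (Pdia4), -0.09 (Pdia6) and 0.09 (P4hb), none with an adjusted p below 0.709. Pdia6 was close to background and passed detection on 2 SclRER/RER arrays and 1 WT array.

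SclRER/RER array 3 stood above both other SclRER/RER arrays for 7 of these 8 measured chaperone and isomerase genes (87.5%), against 37% of all genes tested. Taken as the value minus the gene's mean over the 6 arrays, the median of the 8 genes was -0.04, -0.05 and 0.24 on SclRER/RER arrays 1 to 3, against 0.05, -0.08 and -0.19 on WT arrays 1 to 3. The same median over all genes lay between -0.03 and 0.02 on every array. By this median array 3 stood apart from the arrays of its own genotype, but not in each of the 8 genes. Hsp90b1 was slightly higher on array 1 (11.08) than on array 3 (11.06). Pdia3 was nearly level on these arrays (12.12 and 12.13), as was P4hb (12.63 and 12.66). Array 3 was chosen for description after its values were seen. Without it the differences of Hsp90b1, Canx, Pdia3, P4hb and Pdia4 were 0.15, 0.14, 0.07, 0.08 and 0.00, and the median of the member genes was 0.05. WT array 3 had the lowest median of the 8 genes, and without it Hsp90b1 differed by 0.11 and Pdia4 by -0.03.

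**Figure D3:**
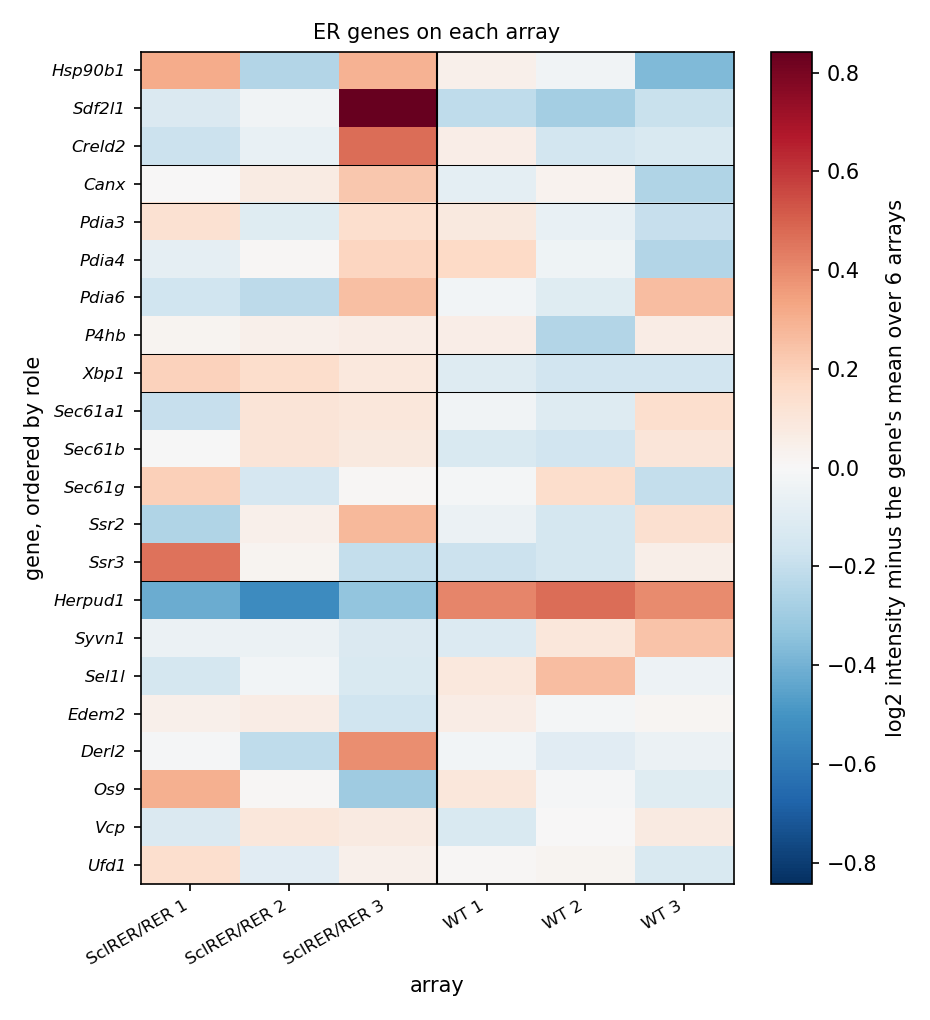
Log2 intensity of each measured ER gene (rows, ordered by role) on each array (columns, SclRER/RER then WT) minus that gene's mean over the 6 arrays. Sdf2l1 and Creld2 are highest on SclRER/RER array 3, at 9.48 and 10.09, and Herpud1 is blue on all 3 SclRER/RER arrays and red on all 3 WT arrays.

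Several of the best known ER chaperones could not be compared. Hspa5 encodes BiP, the ER Hsp70 and main regulator of the sensors, and its only probe was detected on no array, with log2 values of 5.58, 4.97 and 5.32 in SclRER/RER, against 5.47, 5.71 and 5.92 in WT. These values lie below the lowest detected signal of each array (5.97 to 6.42) and give no level of BiP mRNA. The single probes of Calr (calreticulin) and Manf were likewise not detected on any array. Hyou1, an Hsp110-type chaperone, passed detection on 2 SclRER/RER arrays and on no WT array, at 6.46, 6.30 and 6.50 in SclRER/RER, against 5.96, 6.32 and 6.05 in WT. The genotypes overlapped, and with no detection filter the difference was 0.31 (SE 0.11, adjusted p = 0.355).

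The 5 measured translocon genes differed by 0.00 to 0.18, and 0 passed. Sec61a1, the channel-forming subunit, differed by 0.00 on its brightest probe and by -0.04 on a probe near background. Sec61b, a small subunit of the channel, had 11.77, 11.88 and 11.85 in SclRER/RER, against 11.64, 11.61 and 11.87 in WT, a difference of 0.13 (SE 0.12, adjusted p = 0.649). Its values overlapped between genotypes on this probe. The second Sec61b probe did not overlap, at 0.22 (SE 0.11, adjusted p = 0.334). Sec61g differed by 0.05 and Ssr2, of the translocon-associated protein complex, by 0.04. Ssr3, of the same complex, had 7.36, 6.93 and 6.70 in SclRER/RER, against 6.72, 6.76 and 6.96 in WT, so that only SclRER/RER array 1 lay above the WT range, with a difference of 0.18 (SE 0.17, adjusted p = 0.645).

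Of the members with an ERSE upstream, 5 were measured (Hsp90b1, Creld2, Canx, Pdia6 and Syvn1), with differences from -0.15 to 0.24, and 0 passed. Herpud1, which did pass, is not in this count, because the searched window ended within its ERSE-like sequence. The upstream sequences shown above carry the same element for Hspa5, Calr and Derl3, which were not measured above background.

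A further 75 genes of ER protein folding, entry, degradation and stress signalling, called other ER genes below, were counted beside the members. Of these, 72 had a probe and 55 were measured, with 1 higher, 3 lower and 51 not passing (7.27% called, against 6.58% of all genes), and a median difference of -0.03. The genes called lower were Trib3, Dnajc1 and Srpr, and the gene called higher was Spcs3. Dnajc1 was kept only through the WT arrays, where it is high. With detection required on all 6 arrays, 51 of these genes were tested, with 1 called higher and 2 lower.

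Trib3, a pseudokinase induced by ATF4 and its partner CHOP downstream of PERK, was measured by 3 probes. The brightest had 10.52, 9.96 and 10.01 in SclRER/RER, against 11.06, 10.90 and 11.10 in WT. The groups did not overlap on any of the 3 probes, which fell by 0.86, 0.89 and 0.94 (SE 0.16, 0.15 and 0.14, adjusted p = 0.018, 0.01 and 0.00573). The call of the brightest probe was lost without SclRER/RER array 2 (adjusted p = 0.0675) or without WT array 1 (0.057), 2 (0.067) or 3 (0.0845), with no detection filter (0.0793) and with median scaling (0.207).

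The other measured genes listed under the PERK branch did not pass. Ddit3, which encodes CHOP, lay between 9.35 and 9.57 in SclRER/RER and between 9.71 and 10.01 in WT, with no overlap and a difference of -0.44 (SE 0.13, adjusted p = 0.0886). Ppp1r15a, encoding the phosphatase subunit GADD34 that restores translation, had 9.12, 9.19 and 9.08 in SclRER/RER, against 9.63, 9.19 and 9.79 in WT. There WT array 2 lay within the SclRER/RER range, and the difference was -0.41 (SE 0.16, adjusted p = 0.204). Atf4 itself had 3 measured probes, at -0.20 (the brightest, SE 0.16, adjusted p = 0.562), -0.10 and 0.01. Ppp1r15b differed by 0.18 (adjusted p = 0.521). Of the 5 measured genes of this branch, 4 had a difference below 0 and 1 passed, where 6.58% of all genes tested passed and 53.4% had a difference above 0, and a count over 5 genes is given as a description. Neither probe of Eif2ak3 nor the probe of Dnajc3 was detected on any array. PERK mRNA was thus not measured, and whether PERK acts on these genes here was not tested.

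**Figure D4:**
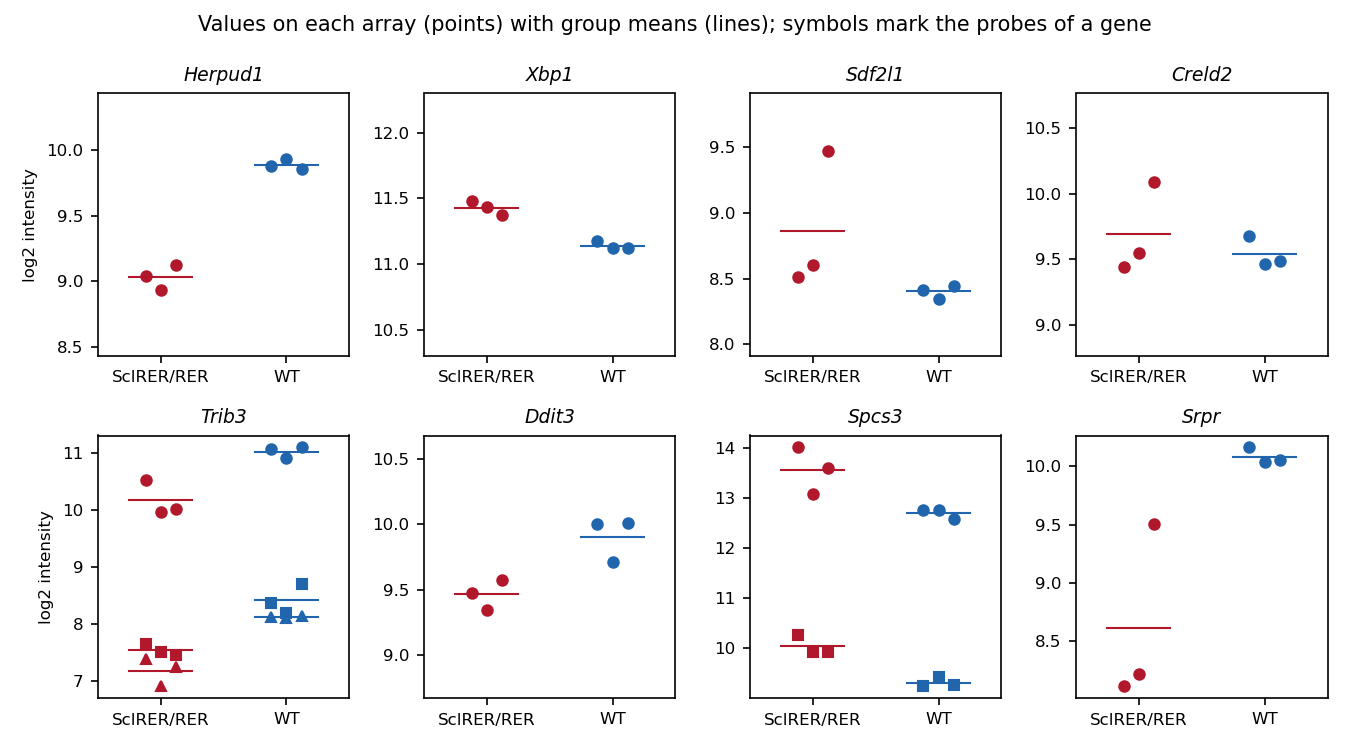
Log2 intensity (y axis) on each of the 3 SclRER/RER arrays (red, left in each panel) and the 3 WT arrays (blue, right) for 8 ER genes, with horizontal lines at the group means and a symbol for each measured probe. Herpud1 and the 3 Trib3 probes are lower on every SclRER/RER array than on any WT array, while Sdf2l1 and Creld2 have array 3 apart from the other SclRER/RER arrays.

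Genes of protein entry gave calls in both directions. Srpr, the alpha subunit of the receptor that docks ribosomes at the ER membrane, had 8.11, 8.22 and 9.50 in SclRER/RER, against 10.16, 10.04 and 10.05 in WT. All SclRER/RER values were lower, with array 3 nearest to WT, and Srpr fell by 1.48 (SE 0.32, adjusted p = 0.0309). Srprb, the beta subunit of the same receptor, differed by 0.00 (SE 0.17, adjusted p = 0.999). Spcs3, a signal peptidase subunit, had 14.02, 13.09 and 13.60 in SclRER/RER, against 12.77, 12.77 and 12.59 in WT. It rose by 0.86 on this probe (SE 0.21, adjusted p = 0.0495) and by 0.73 on its other probe (SE 0.13, adjusted p = 0.014), and like Herpud1 it lies on chromosome 8.

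Dnajc1, an ER membrane J-domain protein, had 6.15, 5.99 and 6.34 in SclRER/RER, against 6.56, 7.19 and 7.37 in WT. It passed detection on 1 SclRER/RER array and all 3 WT arrays, and it fell by 0.88 (SE 0.21, adjusted p = 0.0418), or by 0.73 with values under the lowest detected signal raised to it. Of its other 2 probes 1 was detected on no array, and the other, at 6.26, 6.31 and 6.26 in SclRER/RER, against 6.29, 5.96 and 6.39 in WT, passed detection on 1 array of each genotype and overlapped. The calls of Srpr and Dnajc1 were each lost on leaving out SclRER/RER array 1 or 2, or WT array 2 or 3, and that of Srpr also without WT array 1 (adjusted p 0.0552 to 0.123 for Srpr and 0.0719 to 0.182 for Dnajc1). The Spcs3 call was lost without each array in turn except SclRER/RER array 2 (0.0658 to 0.184). With no detection filter Srpr, Dnajc1 and Spcs3 also lost their calls (0.172, 0.173 and 0.195), as did Dnajc1 under median scaling (0.106) and Spcs3 under array weights (0.0587) and with the replicate block (0.0508). Every alternative that gave a value kept the direction of these calls, with ranges of -1.92 to -1.22 for Srpr, -1.12 to -0.52 for Dnajc1, 0.64 to 1.08 for Spcs3 and -1.04 to -0.75 for Trib3.

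**Figure D5:**
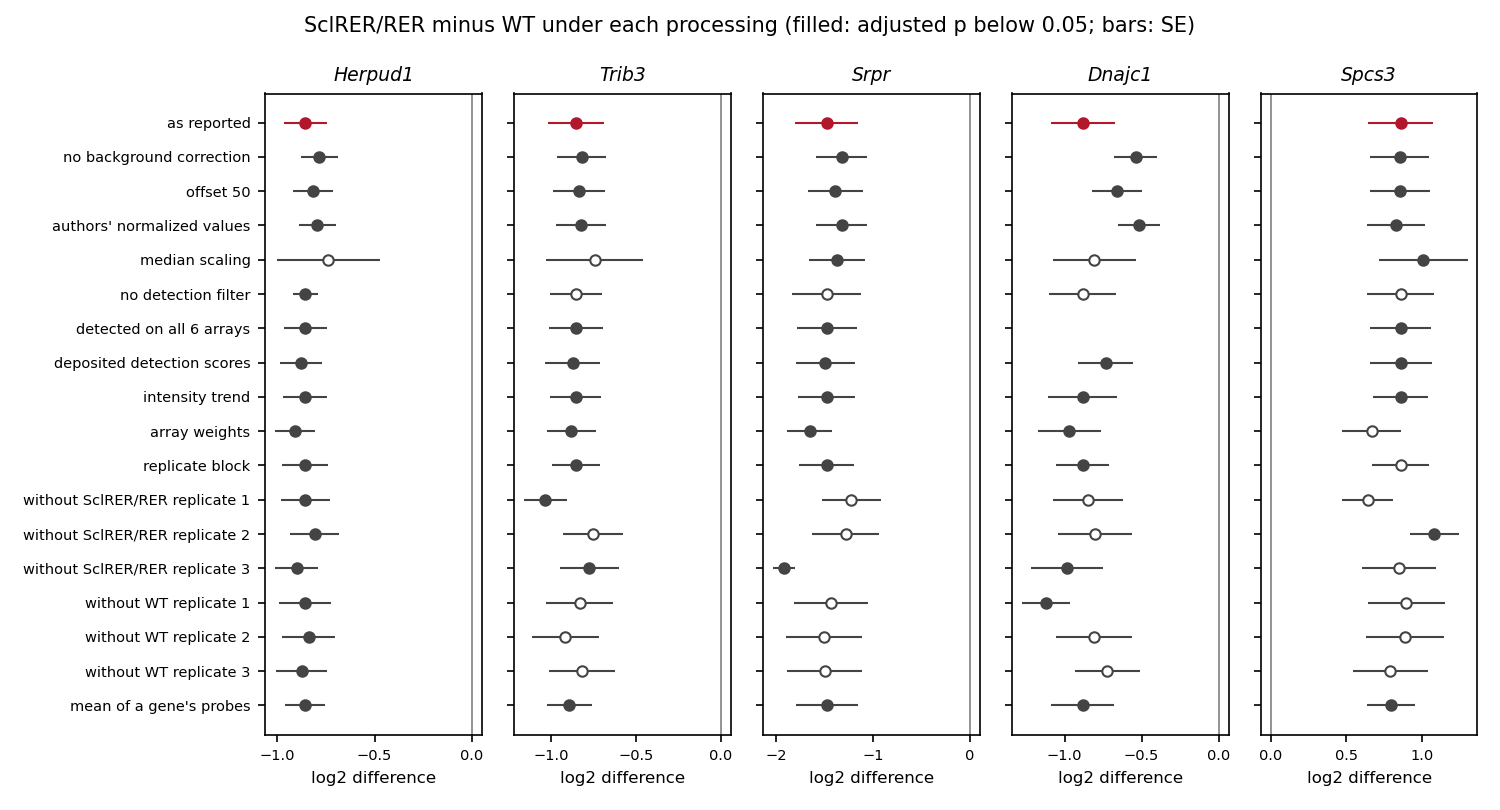
Log2 difference (SclRER/RER minus WT, x axis, bars are SE) of the 5 called ER genes under the reported processing (red) and each alternative (dark, listed on the y axis), filled where the adjusted p was below 0.05. Herpud1 is open only under median scaling, whereas the other 4 genes are open under 6 to 8 settings each.

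Within the degradation machinery of this further list, 15 genes were measured, with 0 called and a median difference of -0.03. Selenos, a selenoprotein that links VCP to the derlins, had the largest difference there on a gene's brightest probe, with 10.55, 10.32 and 10.37 in SclRER/RER, against 10.72, 10.69 and 10.98 in WT. Its values did not overlap, and the difference was -0.38 (SE 0.13, adjusted p = 0.132), while its other probe overlapped at -0.31 (SE 0.16, adjusted p = 0.357). Ubxn8, a tether of VCP at the ER membrane, had probes at -0.35 (the brightest, adjusted p = 0.197) and -0.40 (adjusted p = 0.0747), neither with overlap. Both genes were chosen for naming after their values were seen. In glycoprotein folding, 9 genes were measured with 0 called, and among 9 measured oxidoreductases 0 were called. The largest glycoprotein folding difference was that of Stt3b, -0.71 on its brightest probe (SE 0.24, limma adjusted p = 0.14), without overlap. Its other measured probes were at -0.003 and -0.09 and did not pass. Stt3b too was named after its values were seen.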

How the data were processed

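Per the labels, RNA was amplified and biotin-labelled with an Illumina kit. The deposited table holds linear intensity values, 1 for each probe on each array, neither background-subtracted nor scaled. The adjacent columns, headed as detection p-values in the deposited table, rise with signal and were read as a fraction, 1 minus the detection p. The column beside WT array 3 followed its signals poorly (Spearman 0.899, against 0.996 or more on the other arrays), and WT arrays 1 and 2 supplied its scores by signal rank. The authors' normalized intensity values (every array's median was 83.7) served as an alternative. The submitters' processing notes name limma without a role.

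In limma 3.58.1 (R 4.3.3), signals were background-corrected by normexp from the detection p-values (offset 16), quantile normalized and converted to log2. Probes detected at p below 0.01 on 3 or more of the 6 arrays were kept (11578). Genotype was fitted with lmFit and eBayes, with two-sided p-values adjusted by Benjamini-Hochberg over all kept probes and a threshold of 0.05. A gene is its kept probe of highest mean intensity. The number of arrays limits the precision.

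Symbols came from the platform annotation, updated through GRCm38.p6 identifiers: 29976 probes had 1 symbol, 10 several and 16646 none. No source used here gives the build of the array design, so only gene order was taken from that table, and promoter coordinates are RefSeq's. Members and lists were chosen with earlier results of these data known. A withheld item of the marker lists is not reported here. Values on every array are given for members past the threshold, the 10 largest differences, Hspa5, Xbp1, Atf6 and Ern1. They are also given for other ER genes past the threshold. The remaining ER genes were named for their place in the pathway, except Selenos, Ubxn8 and Stt3b, named after their values were seen. Alternatives were the background correction, normalization, filter, detection scores, variance model, array weights, replicate block, probe summary and leaving out each array.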

Additional observations from a re-analysis of the deposited data

How the results depend on the processing

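The fall of Herpud1 kept its direction under all 17 alternatives (-0.91 to -0.74) and its call under 16 of them. Scaling to a common median shifted the median difference of all genes from 0.02 to 0.13 and left Herpud1 at -0.74 (adjusted p = 0.154). With it 0 member probes and 0 member genes were called by limma (2 of each at an unadjusted p below 0.05), 398 probes and 239 genes were called over the whole array, 2 other ER genes were called, and the median of the member genes was 0.19; the cause was not tested. None of the other 21 member genes was called under any alternative. Array weights raised the calls to 1209 probes and 704 genes. Without a detection filter 0 of the other ER genes were called (limma; 13 at an unadjusted p below 0.05), where 4 were called as reported and 2 with median scaling. Leaving out each array gave 261 to 855 probes and 167 to 521 genes called, with 237 genes without SclRER/RER array 2, and 296, 167 and 184 without WT arrays 1, 2 and 3. It gave 1 member probe and 1 member gene each time and a median of 0.05 to 0.10 for the member genes. It gave 0 to 3 other ER genes: 1 without SclRER/RER array 1 or 2 or WT array 1, and 0 without WT array 2 or 3 (8 and 7 at an unadjusted p below 0.05).

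Same-numbered arrays of the 2 genotypes had residual correlations of 0.16, -0.03 and 0.07, so the numbers were not taken as pairs. With the replicate block 726 probes and 432 genes were called, Herpud1 had an adjusted p of 0.0126 and Spcs3 lost its call (0.0508). Slide as a block was not run because the file headers name no slides. Of 32 members with a probe, 10 lay too close to background to be compared.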
